A study of Mus musculus with 3 samples.

Results

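SR proteins are splicing factors that bind exons through RNA recognition motifs and recruit the spliceosome through a tail rich in arginine and serine. Their genes are known for autoregulation: when an SR protein is abundant, its own pre-mRNA tends to be spliced so that a premature stop codon is included, often on a "poison exon", and the resulting transcript is degraded by nonsense-mediated decay (NMD). NMD requires translation, so an inhibitor of translation also blocks it, and the family has a place in early development, where Srsf3 is required by mouse embryos before implantation. Described here are 10 genes of this family, taken by a list of symbols that was drawn up with earlier results of these data known: Srsf1, Srsf2, Srsf3, Srsf4, Srsf5, Srsf6, Srsf7, Srsf9, Srsf10 and Srsf11. All 10 were found among the 32285 listed genes.

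The cells were E14, a single line of mouse embryonic stem cells from the 129/Ola strain, kept in serum with leukemia inhibitory factor. Starting 24 h after seeding, they received 250 µg/mL cycloheximide, which stops translation elongation, in 0.007% ethanol for 3 h or 6 h, while the control received ethanol for 6 h. The series asked what inhibition of translation does to the transcriptome. Every group is 1 library of detached, frozen and thawed cells, made with 10x Genomics chemistry that tags the 3' end of polyadenylated RNA, so no comparison has a replicate check and no test between conditions was possible. An ethanol control matched to the 3 h treatment was not analysed here, and both treated libraries are set against the same control. Values for the 3 libraries are listed in the order control, 3 h and 6 h, and all 95% intervals cover counting error only.

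Barcodes with at least 15000 unique molecular identifiers (UMIs) and 1 to 20% mitochondrial UMIs were kept, numbering 2187, 1739 and 2554, with 43160 to 51726 UMIs at the median. The mitochondrial share was 4.57%, 3.51% and 2.94% of UMIs, so it differed between the libraries, as did depth. Further on the family is measured within a fixed range of mitochondrial share and on either side of each library's own median depth. The split by depth does not match depth between libraries. Kept barcodes shared by any pair of libraries numbered 1 to 3. The cells carried the markers of their label: all 8 embryonic stem cell markers were above 10 CPM (a gene's UMIs after each library is scaled to the same total). Their sum of 6656, 7664 and 6952 CPM was mostly Dppa5a (4771, 5327 and 5475 CPM). By CPM all 8 were above the control in the 3 h library. In the 6 h library 6 of the 8 were below it, with Zfp42 lowest at a log2 ratio of -0.93. Of the 7608 genes averaging 10 CPM or more, 64.1% were above the control by CPM at each time. The part of these marker differences in the results was not tested. Summed fibroblast, primitive endoderm, mesoderm and trophoblast markers lay between 0.583 and 8.52 CPM in every library, with 2 fibroblast markers and 1 trophoblast marker at 0. Of the 4 neural markers only Tubb3 was above 10 CPM, with 65.3, 35.1 and 18.6 CPM.

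In GENCODE M21, an annotation of GRCm38 (the mm10 build that the submitters' processing notes name), 9 of the 10 genes had at least 1 transcript classed as NMD, 15 transcripts in all, and Srsf10 had 0. In 6 of the genes (Srsf3, Srsf4, Srsf6, Srsf7, Srsf9 and Srsf11) the stop lay on a cassette exon that the main coding model skips. Srsf1 had its stop on an exon cut out of the long last exon, Srsf5 on a longer form of a coding exon, and Srsf2 kept its normal stop codon but had further splicing behind it. In all 15 models the stop lay at least 50 bases before the last exon junction, the distance that is known to mark a stop for NMD. The models were picked by their NMD class, so this count describes the class and is no separate support for decay. The sequences that follow run from the first base of the exon to the premature stop, in capitals, and are shown because this stop is what marks each transcript for decay.
Srsf3: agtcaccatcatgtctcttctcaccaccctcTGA
Srsf7: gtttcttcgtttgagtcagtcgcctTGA
Srsf6: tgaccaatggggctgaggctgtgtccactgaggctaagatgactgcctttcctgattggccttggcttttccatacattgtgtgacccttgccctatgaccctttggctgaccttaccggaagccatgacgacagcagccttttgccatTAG
Srsf9: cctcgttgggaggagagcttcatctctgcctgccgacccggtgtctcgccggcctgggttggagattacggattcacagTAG
Srsf11: ttcttttccctggttcagccTGA
Srsf5: ggcttctctgtaTAG

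On GRCm38 the Srsf3 stretch is chr17:29039454-29039487 on the plus strand, the start of a 456-base cassette exon. The Srsf7 stretch is chr17:80205054-80205081 on the minus strand, in a cassette exon of 460 bases. Srsf6 has its stretch at chr2:162932815-162932966 in a 268-base exon and Srsf9 at chr5:115328347-115328428 in a 358-base exon, both on the plus strand. That of Srsf11 is chr3:158024209-158024231 on the minus strand, in a 109-base exon, and a further cassette exon of this gene has 117 bases. The Srsf5 stretch is chr12:80947116-80947130 on the plus strand, in an exon form of 266 bases. In Srsf3, Srsf7, Srsf11 and Srsf5 the stop came early, ending 34, 28, 23 and 15 bases into the exon, and in Srsf9 and Srsf6 later, at 82 and 152 bases.

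**Figure D1:**
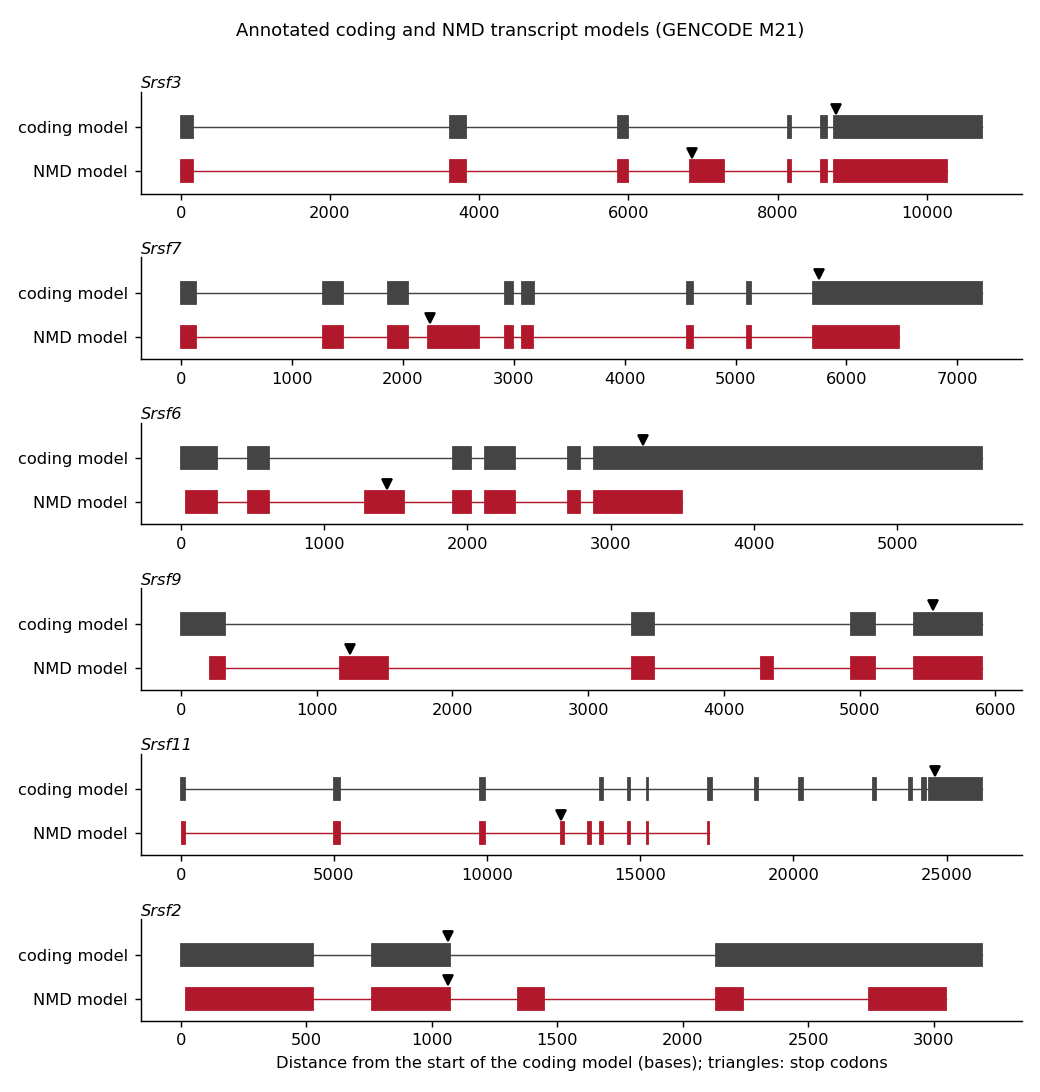
Exons of the main coding model (dark) and of an NMD model (red) of 6 genes, drawn to scale in bases from the start of the coding model, with triangles at the stop codons. Srsf3, Srsf7, Srsf6, Srsf9 and Srsf11 have an added exon with an early stop in the NMD model, and Srsf2 keeps its stop codon and has added splicing behind it.

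These models bear on what was counted. For 6 genes (Srsf1, Srsf2, Srsf3, Srsf6, Srsf7 and Srsf9) the last exon of an NMD model overlapped that of the coding model. A tag from the 3' end may then not separate the forms, although annotated ends can differ. The NMD model of Srsf6 ended 3498 bases from the start of the coding model, which itself ended at 5593. In Srsf9 both ended at 5903. Counts were per gene, so the values that follow are for all transcripts of a gene together. For Srsf4, Srsf5 and Srsf11 the NMD models ended before the last exon of the coding model. Every NMD model of Srsf1, Srsf4 and Srsf9 was marked incomplete in the annotation, as were some of those of Srsf2, Srsf3 and Srsf11. How much of any level came from transcripts with a poison exon was not tested.

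The 10 genes together had 2919, 3647 and 3932 CPM, with 95% Poisson intervals of 2909 to 2929, 3635 to 3658 and 3921 to 3942. The family sum was therefore 1.25-fold the control after 3 h (1.24 to 1.26) and 1.35-fold after 6 h (1.34 to 1.35), which are log2 ratios of 0.32 and 0.43. It was above the control under every scaling tried, with the lowest values of 0.15 and 0.14 from TMM factors over all genes. Against the 3 h library the 6 h sum had a log2 ratio of 0.11, which turned to -0.053 by mean UMIs per barcode and to -0.0032 with those TMM factors.

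The median log2 ratio of the 10 genes against the control was 0.29 for 3 h and 0.40 for 6 h, beside 0.11 and 0.17 over the 7608 genes that averaged 10 CPM or more. By CPM, Srsf11 was the only member higher by at least 1.5-fold, at both times, where 13.9% of all genes were higher by that fold in the 3 h library and 22.1% in the 6 h library. With a floor of 50 CPM in place of 10 those shares were 8.78% and 15.2%, so a count of 1 in 10 is near or below the background. By CPM none of the 10 was lower by 1.5-fold, where 2.13% of all genes were lower in the 3 h library and 7.79% in the 6 h library. With TMM, median-of-ratios and all-gene TMM factors Srsf5 was lower by that fold in the 6 h library, where 12.0%, 12.2% and 16.9% of all genes were. Between 6 h and 3 h, 0 of the 10 were past 1.5-fold in either direction, beside 1.74% of all genes higher and 2.52% lower.

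Where 0 lies depends on how libraries are scaled, and the scalings differ by a shift common to every gene. Relative to CPM the shift was -0.11 for 3 h and -0.16 for 6 h with TMM factors over genes of at least 10 CPM, -0.17 and -0.29 with TMM factors over all genes, and 0.27 and 0.11 by mean UMIs per barcode. With TMM factors over all genes, 8.60% of genes were higher and 5.23% lower by 1.5-fold for 3 h, 11.6% and 16.9% for 6 h, and 0.802% and 4.22% for 6 h against 3 h. By CPM 10 of 10 members were above 0 for 3 h and 8 of 10 for 6 h, beside 64.1% of all genes at each time. With TMM factors over all genes 7 and 6 members were, beside 42.6% and 40.5% of all genes. Set against the median of all genes, which no such shift alters, 7 of the 10 lay above it for 3 h and 7 for 6 h.

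**Figure D2:**
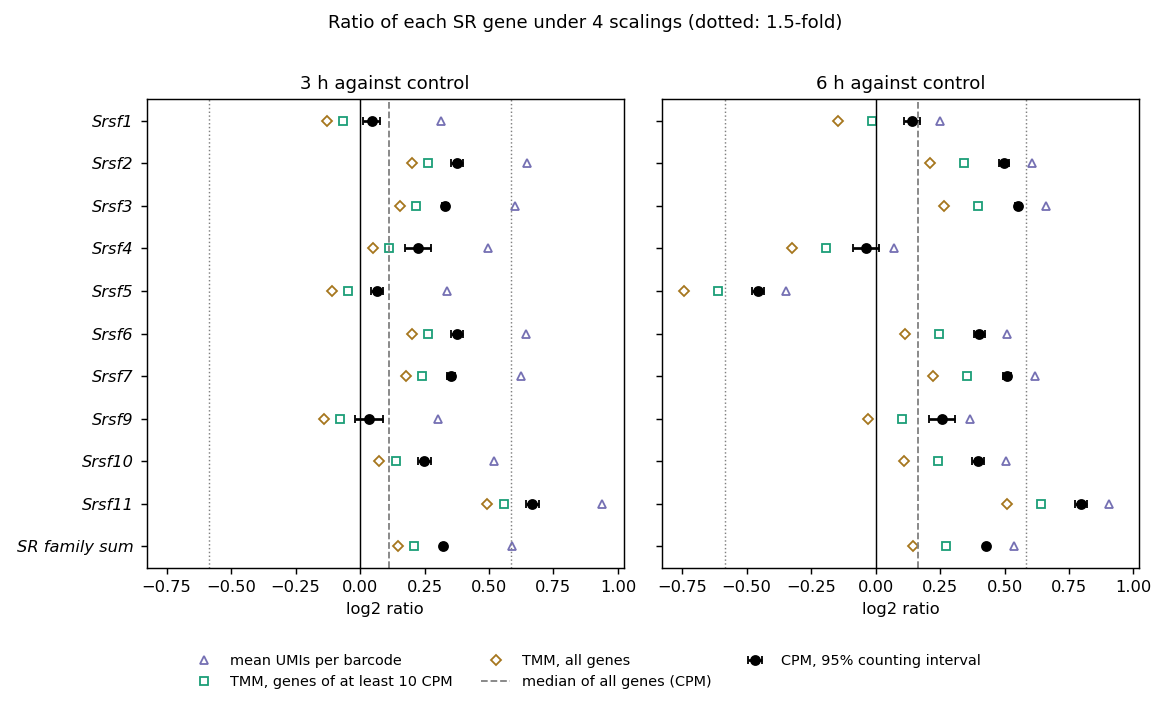
Log2 ratio of each gene and of the family sum for 3 h (left) and 6 h (right) against the control, by CPM with 95% counting intervals and under 3 other scalings. The dashed line is the median of all genes by CPM and dotted lines mark 1.5-fold. By CPM Srsf11 lies past the upper dotted line at both times and Srsf5, at -0.46, is the lowest for 6 h. Srsf1, Srsf5 and Srsf9 for 3 h and Srsf1, Srsf4 and Srsf9 for 6 h have points on both sides of 0.

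Srsf3 and Srsf7 are small SR proteins that also serve as adaptors for mRNA export, and Srsf7 carries a zinc knuckle beside its RNA recognition motif. Srsf3 was the most abundant of the 10, with 966, 1214 and 1416 CPM. Its log2 ratio was 0.33 for 3 h (0.32 to 0.34) and 0.55 for 6 h (0.54 to 0.56), just short of 1.5-fold. Srsf7 had 534, 682 and 761 CPM, log2 ratios of 0.35 (0.34 to 0.37) and 0.51 (0.50 to 0.52). For both genes the control was lowest and the 6 h library highest, with counting intervals apart in the 3 libraries, but for Srsf7 the order of 3 h and 6 h turned by mean UMIs per barcode (-0.0040). Against the control both stayed above 0 with TMM factors over all genes, at 0.27 and 0.22 for 6 h.

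Srsf2, also called SC35, is a nuclear speckle protein that activates exons. It had 258, 334 and 364 CPM, log2 ratios of 0.38 and 0.50. The control was the lowest library and the 6 h library the highest, although by mean UMIs per barcode 6 h was below 3 h (-0.040). Mettl23 lies opposite Srsf2 over its whole length, with 25.03, 27.1 and 30.4 CPM, and Mfsd11 over 655 bases, with 7.14, 11.8 and 17.4 CPM. Whether counting used the strand is not given in the sources used here, so reads of these genes and of Srsf2 may not be told apart.

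Srsf1, Srsf4, Srsf5, Srsf6 and Srsf9 carry a pair of RNA recognition motifs. Srsf6 had 239, 310 and 316 CPM, log2 ratios of 0.38 and 0.40. The treated libraries were both above the control and close to each other, with a ratio of 0.027 between them that turned to -0.017 with TMM factors. Srsf1, a factor of both constitutive and alternative splicing, had 134.7, 139 and 148.5 CPM. Its ratios of 0.046 and 0.14 lay below the medians of all genes and turned to -0.066 and -0.015 with TMM factors, so no direction is given for it. Srsf9, the smaller relative of Srsf1, had 47.4, 48.6 and 56.6 CPM. Its 3 h ratio of 0.034 was within counting error (-0.021 to 0.090), and its 6 h ratio of 0.26 turned to -0.030 with TMM factors over all genes.

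Srsf5, a close relative of Srsf4 and Srsf6, had the lowest 6 h ratio of the family. Its levels were 290, 304 and 211 CPM. The 3 h library was near the control, with a log2 ratio of 0.066 (0.044 to 0.088) that turned to -0.045 with TMM factors. For 6 h the ratio was -0.46 (-0.48 to -0.43), negative under every scaling tried, from -0.35 by mean UMIs per barcode to -0.74 with TMM factors over all genes. It was past 1.5-fold with TMM (-0.61), median-of-ratios (-0.62) and all-gene TMM factors and short of it by CPM. Against 3 h it was -0.52 (-0.55 to -0.50), at percentile 3.31 of all genes.

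Srsf4, the longest of these paired-motif proteins, had 54.9, 64.1 and 53.5 CPM. Its 3 h ratio was 0.22 (0.17 to 0.27), whereas its 6 h ratio of -0.037 was within counting error (-0.086 to 0.012). By CPM, Srsf4 and Srsf5 were the 2 members that were lower in the 6 h library than in the 3 h library, Srsf4 by a log2 ratio of -0.26.

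Srsf10 and Srsf11 are less typical members. Srsf10 is known as a splicing repressor when dephosphorylated, and Srsf11 as a partner of factors that recognise the 3' splice site. Srsf11 had 202, 320 and 350 CPM. Its fold was 1.59 for 3 h (1.56 to 1.62) and 1.74 for 6 h (1.71 to 1.76), at percentiles 89.0 and 86.2 of all genes. Its log2 ratios of 0.67 and 0.80 became 0.56 and 0.64 with TMM factors, and 0.49 and 0.51 with TMM factors over all genes, of which only the 0.64 is past 1.5-fold.

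Srsf10, the member without an annotated NMD transcript, had 194, 230 and 255 CPM. Its log2 ratios of 0.25 and 0.40 placed it at percentiles 64.8 and 67.5 of all genes, between members that have such transcripts. In Srsf4 and Srsf11 the annotation holds a further gene on the same strand that has no counts of its own here, so reads from it, if any, cannot be told apart.

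**Figure D3:**
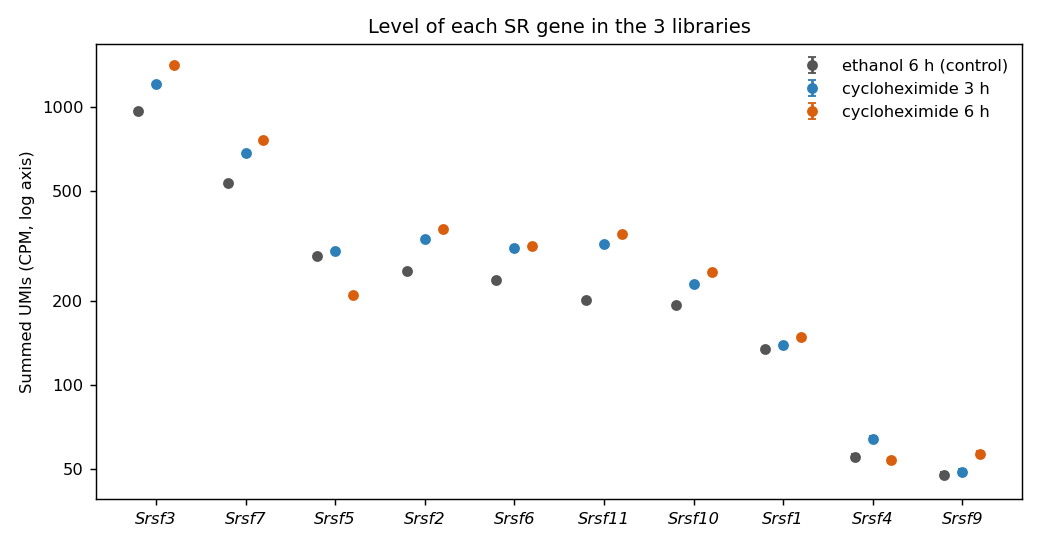
Level of each gene in CPM on a log axis, with 1 point per library and bars for the 95% Poisson interval, mostly smaller than the points. Between control and 6 h, Srsf3 goes from 966 to 1416 CPM, Srsf11 from 202 to 350 CPM, and Srsf5 from 290 to 211 CPM.

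Each 3' tag stands for 1 molecule, so the members' UMIs were compared without dividing by transcript length, although capture may differ between genes. In the control the order was Srsf3, Srsf7, Srsf5, Srsf2, Srsf6, Srsf11, Srsf10, Srsf1, Srsf4 and Srsf9. In every library all neighbours in the order had counting intervals that did not overlap. By 6 h Srsf5 had moved below Srsf2, Srsf11, Srsf6 and Srsf10, Srsf11 stood above Srsf6, and Srsf9 above Srsf4.

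The make-up of the SR pool does not depend on scaling between libraries. Srsf3 made up 33.1%, 33.3% and 36.0% of the SR UMIs, with exact binomial intervals of 32.9 to 33.3 for the control and 35.9 to 36.1 for 6 h. Srsf7 made up 18.3%, 18.7% and 19.4%. Srsf5 held 9.94%, 8.33% and 5.37%, a difference of -4.56 percentage points between 6 h and the control. Srsf11 held 6.91%, 8.79% and 8.90%, the higher share being present by 3 h. Srsf1 held 4.62%, 3.81% and 3.78%, and Srsf4 held 1.88%, 1.76% and 1.36%. Srsf9 held 1.62%, 1.33% and 1.44%, with intervals of 1.58 to 1.67 for the control and 1.30 to 1.37 for 3 h. The shares of Srsf2, Srsf6 and Srsf10 differed from the control by at most 0.43 percentage points at either time.

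**Figure D4:**
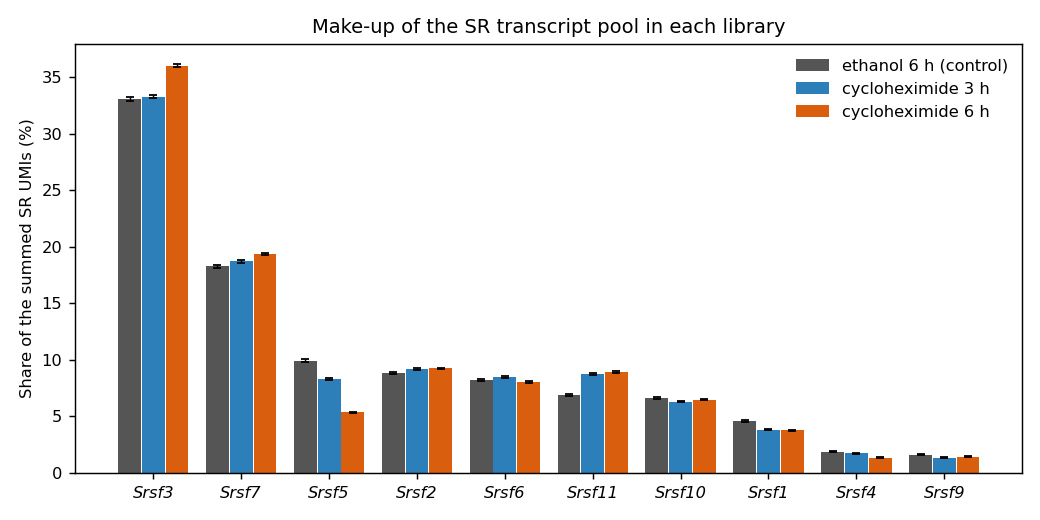
Share of each gene in the summed UMIs of the 10 SR genes, with 1 bar per library and 95% exact binomial intervals. Between control and 6 h the share of Srsf3 goes from 33.1% to 36.0%, that of Srsf11 from 6.91% to 8.90%, and that of Srsf5 from 9.94% to 5.37%.

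Barcode by barcode, with each thinned to 15000 UMIs, the summed SR count had medians of 44, 54 and 58 UMIs. The quartiles were 38 and 50 for the control, 48 and 61 for 3 h, and 52 and 65 for 6 h. The distributions overlapped, and the 95th percentile of the control, 58 UMIs, equalled the median of the 6 h library. Above the control median lay 46.0% of control barcodes, 84.1% of 3 h barcodes (exact binomial interval 82.3 to 85.8) and 92.9% of 6 h barcodes (91.8 to 93.8). No doublets were removed, and barcodes are not replicates of a condition.

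**Figure D5:**
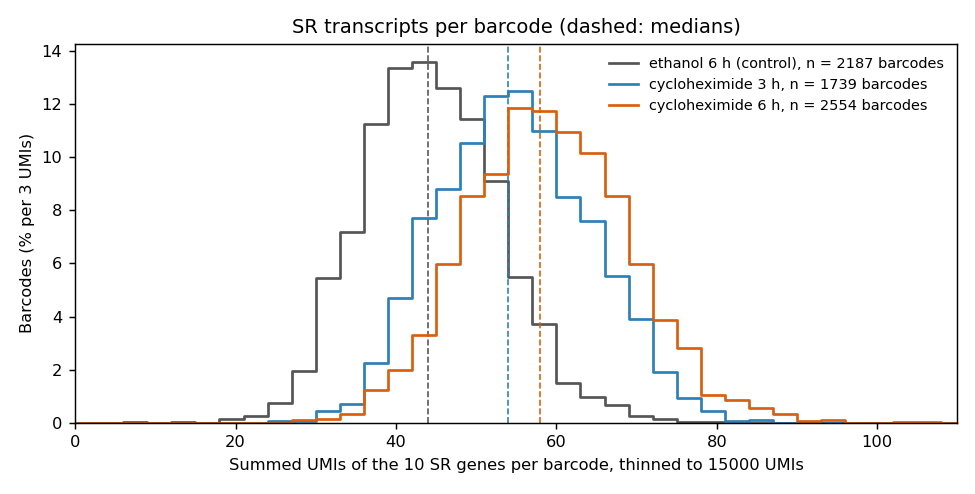
Distribution of the summed UMIs of the 10 SR genes over barcodes thinned to 15000 UMIs, as percent of barcodes per 3 UMIs, for the 3 libraries, with dashed lines at the medians of 44, 54 and 58 UMIs. The 3 curves overlap, and the treated libraries lie to the right of the control.

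At this depth Srsf3 had a UMI in every barcode of every library, with means of 14.7, 18.2 and 21.2 UMIs. Srsf9 was seen in 48.7%, 46.8% and 54.7% of barcodes and Srsf4 in 55.2%, 62.1% and 53.8%. Without thinning the control shares were 81.4% for Srsf9 and 86.0% for Srsf4. Srsf5 was seen in 98.3%, 98.3% and 94.2% of thinned barcodes. The cells are of 1 type, so no cell type that should lack these genes was at hand to measure background.

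Variability beyond counting noise was expressed as the excess squared coefficient of variation, in which the mean is taken off the variance before division by the squared mean. For Srsf5 it was 0.0589, 0.0668 and 0.126, and 0.0690, 0.0787 and 0.123 when barcodes were thinned to 25000 UMIs instead. The mean of Srsf5 was 4.45, 4.64 and 3.27 UMIs per thinned barcode, and its 10th and 90th percentiles were 2 and 8 in the control but 1 and 6 by 6 h. For Srsf3 the excess was 0.0290, 0.0291 and 0.0276, and for Srsf7 0.0558, 0.0455 and 0.0368. Between control and 6 h Srsf4 went from 0.0458 to 0.0903 and Srsf1 from 0.0742 to 0.102, whereas Srsf9 went from 0.194 to 0.0951. Thinned to 25000 UMIs, the control and 6 h values were 0.0782 and 0.0789 for Srsf4 and 0.0617 and 0.0696 for Srsf1. For Srsf9 they were 0.102 and 0.113. No interval was computed for these values. Unthinned counts, which also carry differences in depth, gave 0.216, 0.298 and 0.306 for Srsf5.

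Across barcodes, medians of Pearson's r over the 45 pairs of members were 0.033, 0.023 and 0.025. Counting noise at 15000 UMIs limits these values. From each gene's mean and excess variability, genes that varied fully together were estimated to reach a median r of only 0.12, 0.13 and 0.15. These limits are estimates without an interval. In the control, Srsf4 with Srsf10 had r of 0.0681, above its estimated limit of 0.0665. Srsf3 with Srsf7, the 2 most abundant members, had r of 0.22, 0.23 and 0.22 over 2187, 1739 and 2554 barcodes. Their limits of 0.30, 0.33 and 0.33 were the highest of any pair. Srsf3 with Srsf5 had limits of 0.25, 0.29 and 0.33 and r of 0.011, 0.038 and 0.055. What sets the order of pairs by r was not tested.

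Free RNA in the droplets, taken from barcodes of 10 to 100 UMIs, held the family at 3045, 3858 and 4075 CPM, log2 ratios of 0.34 and 0.42 that were close to those of the kept barcodes. Srsf5 had 342, 347 and 270 CPM there, a 6 h ratio of -0.34 (-0.46 to -0.22). Srsf11 had 187, 314 and 303 CPM, ratios of 0.75 and 0.70. Srsf1 was the member most enriched in free RNA, with 216, 262 and 216 CPM, 1.61, 1.89 and 1.45 times its level in kept barcodes. When 10% free RNA was subtracted the family ratios were 0.32 and 0.43, and the 3 h ratio of Srsf1 turned to -0.0027.

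Within ranges of mitochondrial share and depth, added after results were known, the family was again above the control. Among barcodes with 2 to 4% mitochondrial UMIs (586, 1216 and 2174 of them), the log2 ratio of the sum was 0.31 for 3 h and 0.41 for 6 h. In that range Srsf11 had 0.80 and Srsf5 -0.42 for 6 h, and Srsf2 reached 0.59 and passed 1.5-fold. The share of all genes past 1.5-fold in that range was not computed. Among barcodes up to each library's median UMIs the 6 h sum had 0.40, and among those above it 0.44.

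Other genes of the pathway were read from lists by the same fold and by CPM, beside the 13.9% and 22.1% of all genes higher and the 2.13% and 7.79% lower for 3 h and 6 h. The NMD-sensitive RNAs, spliced noncoding transcripts whose short reading frames make them targets of NMD, were all higher than in the control by at least 1.5-fold: Gas5 had 174, 809 and 1036 CPM, Snhg1 118, 1168 and 1693 CPM, and Snhg12 66.0, 439 and 652 CPM. Snhg15 had 52.2, 618 and 933 CPM and Zfas1 52.2, 621 and 852 CPM, so that each of these 5 RNAs differed from the control by more than any SR gene. They were chosen with earlier results of these data known, so this difference is a description and no separate support for a block of NMD. Of 7 kinases of SR proteins above 10 CPM, 2 were higher by at least 1.5-fold for 3 h and 3 for 6 h, and 0 were lower, with median log2 ratios of 0.49 and 0.32. With TMM factors over all genes the 6 h counts were 2 higher and 1 lower, beside 11.6% and 16.9% of all genes. Clk1, a nuclear kinase that phosphorylates the arginine and serine tails, had the highest 6 h ratio, with 50.2, 98.8 and 117 CPM and ratios of 0.98 and 1.22. Srpk2, an SR kinase of the cytoplasm, had the lowest, with -0.35 for 6 h and a 3 h value of -0.22 that turned to 0.050 by mean UMIs per barcode.

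Of 23 SR-related and splice site genes, 4 were higher for 3 h and 5 for 6 h, and 1 was lower for 6 h, with medians of 0.18 and 0.10. Those are 17.4% and 21.7% higher, near the shares of all genes. With TMM factors over all genes the 6 h counts were 3 higher and 3 lower, beside 11.6% and 16.9% of all genes. The 6 h median was then -0.19. Rsrc2, whose protein has an arginine and serine rich region, had 159, 345 and 437 CPM and ratios of 1.12 and 1.46. Arglu1, an arginine and glutamate rich splicing regulator, was lowest with 129, 96.4 and 70.1 CPM and ratios of -0.42 and -0.88. The 25 hnRNP genes, whose proteins often oppose SR proteins at exons, had medians of -0.066 and -0.13, below those of all genes, although by mean UMIs per barcode the 3 h value became 0.20. By CPM 1 was higher by 1.5-fold for 3 h and 3 for 6 h, and 2 were lower for 6 h. With TMM factors over all genes 0 were higher and 8 (32%) lower for 6 h, beside 11.6% and 16.9% of all genes. Hnrnph3 had the highest 6 h ratio, 0.80, and Hnrnpu the lowest, -0.95, with 804, 559 and 415 CPM.

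Among 14 NMD factors above 10 CPM, 4 were higher for 3 h and 3 for 6 h, and 0 were lower, with medians of 0.22 and 0.23. With TMM factors over all genes 0 were higher for 3 h, where 8.60% of all genes were. For 6 h those factors gave 2 higher and 2 lower, beside 11.6% and 16.9% of all genes, and a median of -0.055. Upf2, a core NMD protein that links Upf1 to the exon junction complex, had 36.9, 56.7 and 73.6 CPM and ratios of 0.62 and 1.00. Upf3a was lowest with -0.42 for 6 h, and its 3 h value of -0.23 turned to 0.035 by mean UMIs per barcode. Of the transport genes, Tnpo3, the importin of SR proteins, had ratios of 0.0059 and -0.043, and Nxf1, the mRNA export receptor, 0.054 and 0.012, and each of these 4 values turned sign with the scaling. Nxt1, the cofactor of Nxf1, had 0.56 and 0.59, the latter past 1.5-fold by CPM and 0.30 with TMM factors over all genes.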

How the data were processed

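UMI counts per gene and barcode in 3 libraries were used as the authors deposited them, made with Cell Ranger 4.0.0 on mm10 per the submitters' processing notes. The annotation, the strand setting and the handling of reads shared between genes are not given in the sources used here. Each library's matrix lists 6794880 barcodes, so cells had not been called. UMIs were summed over kept barcodes (15000 UMIs or more, 1 to 20% mitochondrial) and scaled to CPM. Log2 ratios used a prior of 0.5 counts. Intervals were exact Poisson for levels, exact conditional binomial for ratios and Clopper-Pearson for shares, at 95%. With 1 library per group no test was run. Lists used genes averaging 10 CPM or more. The members and lists were chosen with earlier results of these data known. Beside the 10 members, all NMD-sensitive and transport genes were named, and the highest and lowest 6 h ratio of each other list. Of 32285 gene identifiers, 32158 matched GENCODE M21, among them all members, and its transcripts gave the sequences. Alternatives were edgeR 4.0.16 TMM factors (R 4.3.3), median-of-ratios size factors, mean UMIs per barcode, other barcode limits, free RNA subtraction, a prior of 5 counts, other floors and other thinning depths; TMM over all genes and the ranges of depth and mitochondrial share were chosen after seeing the data. The computations were tested on simulated data. Python 3.11.15, numpy 2.4.6, scipy 1.17.1, pandas 2.3.3 and matplotlib 3.10.9 were used.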

Additional observations from a re-analysis of the deposited data

Results flagged for a closer look

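Srsf5 lay on opposite sides of the control at the 2 treatment times, by a log2 ratio of 0.066 for 3 h and -0.46 for 6 h. This contrast was not tested because only 1 library exists per time, and the 3 h value turned to -0.045 with TMM factors.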

How the results depend on the processing

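No paired analysis was possible because each group has 1 library, and for the same reason no replicate could be left out. Scaling moved every ratio by a shift common to all genes. Family sums at 3 h, at 6 h and for 6 h against 3 h were 0.21, 0.27 and 0.065 with TMM factors, 0.21, 0.27 and 0.061 with median-of-ratios factors, 0.59, 0.54 and -0.053 by mean UMIs per barcode, and 0.15, 0.14 and -0.0032 with TMM factors over all genes (added after the data were seen). Medians of the 10 genes in the same order were 0.18, 0.24 and 0.081, then 0.17, 0.24 and 0.077, then 0.56, 0.51 and -0.037, then 0.11, 0.11 and 0.013. Genes higher by 1.5-fold at 3 h numbered 0 with TMM, median-of-ratios and TMM over all genes (10.1%, 10.1% and 8.60% of all genes) and 5 by mean UMIs per barcode (30.1% of all genes). At 6 h they numbered 4 by mean UMIs per barcode (27.8% of all genes), 0 with TMM over all genes (11.6%) and 2 at 2 to 4% mitochondrial UMIs. For that mitochondrial range the share of all genes was not computed, so the count of 2 has no background beside it. Genes lower by 1.5-fold at 6 h numbered 1, Srsf5, with TMM, median-of-ratios and TMM over all genes (12.0%, 12.2% and 16.9% of all genes), and for 6 h against 3 h 1, Srsf5, by mean UMIs per barcode and with TMM over all genes (5.28% and 4.22%).

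Barcode limits moved values less. Without mitochondrial limits the sums were 0.34 and 0.45 at 3 h and 6 h and the medians 0.32 and 0.44. Without barcodes above 2 times the median UMIs the 6 h sum was 0.42. With free RNA subtracted the 6 h against 3 h median was 0.15. Among barcodes up to the median UMIs the 6 h sum was 0.40, the 6 h against 3 h sum 0.087, its median 0.10 and the 3 h median 0.32; above the median UMIs the sums were 0.44 at 6 h and 0.12 for 6 h against 3 h. At 2 to 4% mitochondrial UMIs the sums were 0.31 and 0.41.

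Signs of single genes turned as follows. Srsf1 at 3 h became -0.066 with TMM, -0.069 with median-of-ratios, -0.13 with TMM over all genes and -0.0027 with free RNA subtracted, and at 6 h -0.015, -0.021 and -0.15 with the first 3. Srsf5 at 3 h became -0.045, -0.049 and -0.11 with the same scalings, and Srsf9 at 6 h -0.030 with TMM over all genes. For 6 h against 3 h, mean UMIs per barcode gave -0.066 for Srsf1, -0.040 for Srsf2, -0.13 for Srsf6, -0.0040 for Srsf7, -0.013 for Srsf10 and -0.033 for Srsf11. Srsf6 in that comparison became -0.017 with TMM, -0.020 with median-of-ratios, -0.085 with TMM over all genes and -0.0057 up to the median UMIs, and Srsf1 -0.017 with TMM over all genes. Values within counting error by CPM turned as well: Srsf4 for 6 h became 0.071 by mean UMIs per barcode, 0.010 without mitochondrial limits and 0.023 at 2 to 4% mitochondrial UMIs, and Srsf9 for 3 h became -0.077 with TMM, -0.081 with median-of-ratios and -0.14 with TMM over all genes. Outside the scalings the cause of these turns was not tested. A prior of 5 counts and minimums of 5000 or 30000 UMIs turned no sign of a gene. Without a floor, shares of all genes higher by 1.5-fold were 25.8% for 3 h and 35.6% for 6 h.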

Other observations

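Further genes of the fixed lists past 1.5-fold by CPM for 6 h were singled out after their values were seen. Among the kinases these were Clk3, with 21.1, 29.6 and 35.4 CPM in the control, 3 h and 6 h libraries, and Clk4, with 20.4, 41.2 and 44.5 CPM, both relatives of Clk1. Tra2a had 93.2, 149.1 and 170.7 CPM and Tra2b 229, 350 and 407 CPM, and both encode SR-like activators of exons. Luc7l, a relative of a yeast U1 snRNP protein, had 116, 228 and 268 CPM, and Rbm39, an SR-related splicing factor, had 621, 886 and 938 CPM. Among the hnRNP genes, Hnrnpdl had a 6 h log2 ratio of 0.65, Ptbp2 0.61 and Hnrnpul2 -0.59. Of the NMD factors, Smg9, a regulator of the Smg1 kinase, had 9.84, 15.7 and 18.9 CPM, and Casc3, a component of the exon junction complex, 31.8, 49.0 and 56.9 CPM. With TMM factors over all genes the 6 h ratios of Clk3, Tra2b, Rbm39, Hnrnpdl, Ptbp2 and Casc3 were below 1.5-fold, and by mean UMIs per barcode that of Hnrnpul2 was -0.48.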
